A study of Mus musculus with 7 samples.

Results

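The class I myosins measured here are 7 genes, *Myo1a*, *Myo1c*, *Myo1d*, *Myo1e*, *Myo1f*, *Myo1g* and *Myo1h*, out of 19938 genes tested on the arrays. They were taken as every probe set paired with 1 of these symbols alone, which gave 8 of the 21789 probe sets with a single symbol, 2 of them for *Myo1d*. *Myo1d* was selected on its own measured decrease with miR-709 on these arrays, a decrease that the study also used to pick it, so its values are given as a description without a test. The other 6 genes were chosen because they belong to the same family.

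Class I myosins are single-headed motor proteins that move along actin filaments while their tail binds the lipids of a membrane. Calmodulin serves as the light chain on their neck. They are known for work at the cell cortex, in microvilli, in endocytosis and in the traffic of recycling endosomes, and the fly relative of *Myo1d* is known for setting left-right asymmetry of organs.

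Primary hepatocytes, which carry out most of the metabolism of the liver, came from male C57BL/6J mice after collagenase digestion and a Percoll gradient that parts them from the other liver cells. They were transfected with 1 µg of miR-709 mimic (4 replicates, A to D) or of Cel-239b, a worm miRNA that served as control (3 replicates, B to D), and total RNA was isolated 24 h later. Each replicate was measured on its own Affymetrix Mouse Gene 1.0 ST array, and the sources do not say whether replicates came from separate mice or isolations, so a p-value here reflects only how far these arrays scatter. The comparison asks which class I myosin transcripts differ in level when the cells hold more miR-709.

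The deposited values were log2 signals from 1.92 to 14.08, and each array had a median between 5.04 and 5.07. Differences are miR-709 minus Cel-239b on the log2 scale, so that a difference of -1 is a halved signal. Precision is limited by the number of arrays, and over all genes a difference had a median standard error of 0.08. A gene was called lower or higher when its adjusted p from limma was under 0.05, and 1.47% of the genes tested were called lower and 1.81% higher. An unadjusted p under 0.05 from limma was reached by 2987 of the 19938 genes tested, the background for such counts below. Levels of different genes were not read as relative amounts of RNA, since probes differ in brightness. They were used to pick the brightest probe set of a gene and to mark mean signals over 6 or under 5.

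*Myo1d* had a lower signal on each of the 4 miR-709 arrays than on any Cel-239b array. On its brighter probe set the log2 signal was 7.96 on Cel-239b replicate B, 7.96 on C and 8.01 on D. With miR-709 it was 6.96 (replicate A), 6.74 (B), 6.61 (C) and 6.76 (D). The control arrays lay close together, and a gap of 1.0 on the log2 scale parted the lowest of them from the highest miR-709 array. The mean was 7.98 ± 0.03 (SD, n = 3) with Cel-239b and 6.77 ± 0.14 (SD, n = 4) with miR-709, a log2 difference of -1.21 (standard error 0.08, 95% interval -1.39 to -1.03) or 2.31-fold lower. Of all genes tested, 22 had a lower log2 difference.

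The second *Myo1d* probe set showed the same direction. Its log2 signal was 7.44, 7.62 and 7.29 on Cel-239b replicates B, C and D. With miR-709 it was 6.69, 6.34, 6.54 and 6.72 on replicates A, B, C and D. The groups again did not overlap, with a gap of 0.57, and the difference was -0.88, or 1.84-fold lower. The depth of the decrease was not ordered alike on the 2 probe sets, since the lowest miR-709 array was C on the brighter probe set and B on the second. Both probe sets read the same RNA on the same arrays and are not independent replicates. In RNA of a whole culture, fewer cells that express a gene and less of its RNA per cell cannot be told apart.

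**Figure D1:**
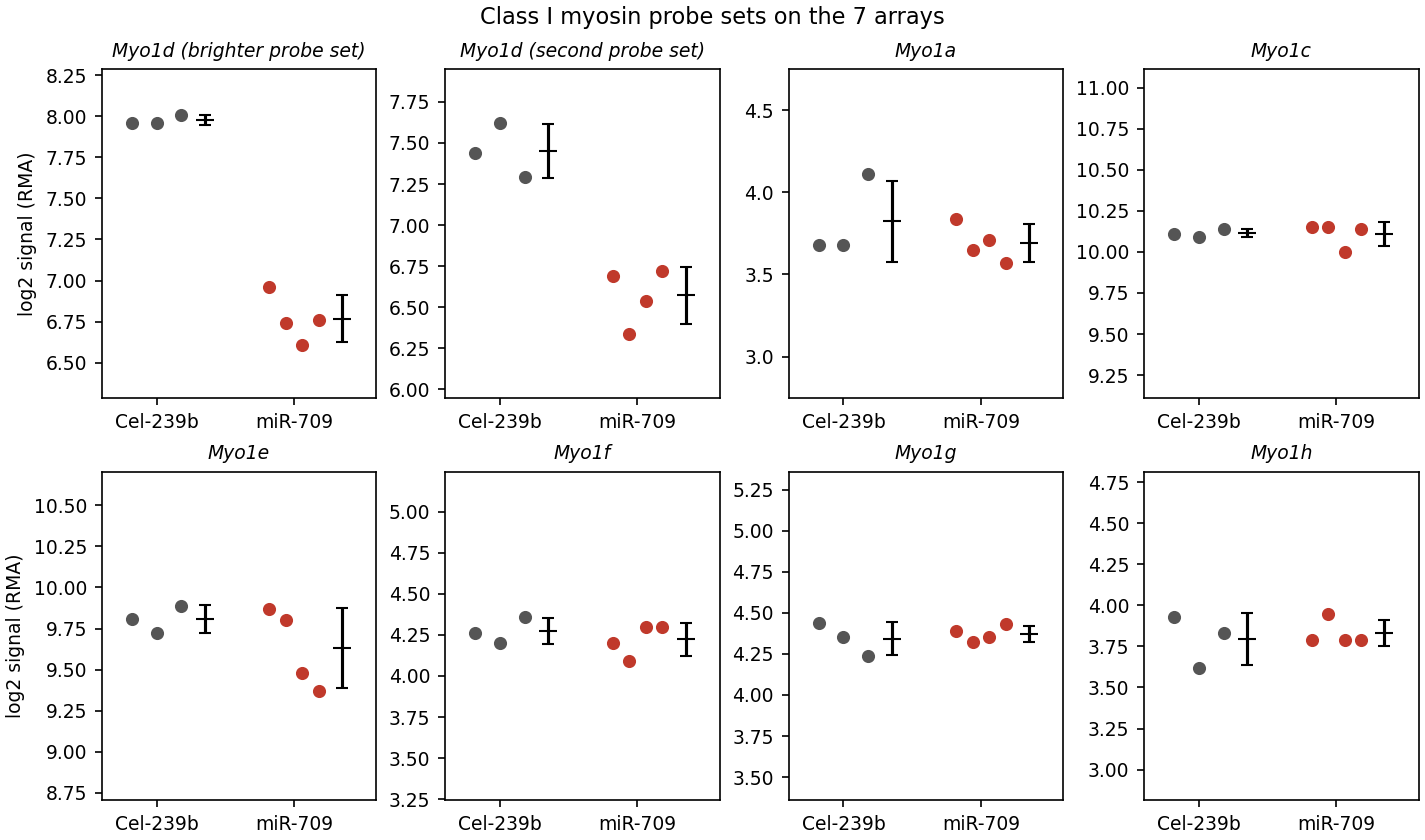
Log2 signal (y axis, each panel spanning the same height in log2 units) of the 8 class I myosin probe sets on the Cel-239b arrays (grey, replicates B to D from left to right) and the miR-709 arrays (red, A to D), with the mean and SD in black beside the points. The red points lie below all grey points in both *Myo1d* panels, and the groups overlap in the other 6.

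*Myo1c* and *Myo1e* were the other members with a mean log2 signal over 6. *Myo1c*, known for bringing glucose transporters to the cell surface, had log2 signals of 10.11, 10.09 and 10.14 with Cel-239b and of 10.15, 10.15, 10.00 and 10.14 with miR-709, each in order of replicate letter. These arrays overlapped, and the log2 difference was -0.0033 (standard error 0.06, 95% interval -0.14 to 0.13). Leaving out miR-709 replicate C, the lowest array, had to raise the difference of *Myo1c*, which was then 0.03.

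*Myo1e*, a long-tailed class I myosin that takes part in endocytosis, varied most among the miR-709 arrays of these brighter members. Its log2 signal was 9.81, 9.72 and 9.89 with Cel-239b, and 9.87, 9.80, 9.48 and 9.37 with miR-709. Replicates A and B lay among the control arrays, while replicates C and D lay below them. The difference was -0.18 (standard error 0.12, 95% interval -0.45 to 0.09). It was 0.03 without miR-709 replicates C and D, a choice made after the data were seen. These were the lowest arrays of *Myo1e*, so leaving them out had to raise its difference. On these replicates the mean log2 signal of 13 interferon response genes was also 0.91 and 0.93 above the Cel-239b mean, against -0.14 on A and -0.08 on B, and the part of this in the *Myo1e* values was not tested. None of these 13 genes was called over all arrays (2 at an unadjusted p under 0.05, none by the methods' t-test). The decrease of *Myo1d* was present on all 4 arrays, relative to the Cel-239b mean at -1.02 (A), -1.24 (B), -1.37 (C) and -1.22 (D).

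The remaining 4 members had a mean log2 signal under 5, below the median of every array, where a change in transcript may leave the signal little changed. *Myo1a*, the brush border motor of intestinal microvilli, had log2 signals of 3.68, 3.68 and 4.11 with Cel-239b and 3.84, 3.65, 3.71 and 3.57 with miR-709. *Myo1f*, known from leukocytes, was at 4.26, 4.20 and 4.36 against 4.20, 4.09, 4.30 and 4.30. *Myo1g*, known from lymphocytes, was at 4.44, 4.35 and 4.24 against 4.39, 4.32, 4.35 and 4.43. In all of these the arrays of both treatments overlapped. *Myo1h* was at 3.93, 3.62 and 3.83 against 3.79, 3.95, 3.79 and 3.79. The log2 differences of these dim members ran from -0.13 for *Myo1a* to 0.04 for *Myo1h*, with 95% intervals that reached no lower than -0.38 and no higher than 0.22.

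Of the 7 members, limma called 1 lower (*Myo1d*), none higher, and 6 neither. The adjusted p of those 6 ran from 0.552 for *Myo1e* to 0.989 for *Myo1c*, and their median difference was -0.0271, beside 0.0125 over all genes. At an unadjusted p under 0.05 from limma 1 member passed, *Myo1d*, beside 2987 of the 19938 genes tested. The methods' t-test called 1 after adjustment, again *Myo1d*. The 4 miR-709 arrays were all below the Cel-239b arrays for 1 member, as they were for 4.91% of all genes. These counts hold the gene that was selected for its decrease, and nothing is read from them. A p above the threshold does not show that the other class I myosins did not change. The intervals for *Myo1c* and *Myo1e*, which are well above the array median, leave out a decrease as large as that of *Myo1d*.

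The wider myosin family was then compared in the same way. Of 38 measured motor genes, *Myo1d* was the 1 gene called lower, no gene was called higher, and *Myo1d* was also the 1 gene with a log2 difference under -0.5. Over all genes 1.47% were called lower, and since *Myo1d* was selected for its decrease, its place in this count restates the selection and nothing is read from it. The next lowest was *Myh9*, the heavy chain of non-muscle myosin IIA and like all class II myosins a 2-headed filament former. Its log2 signal was 11.27, 11.15 and 11.10 with Cel-239b and 11.07, 10.97, 10.80 and 10.83 with miR-709. The groups did not overlap, yet the highest miR-709 array lay just under the lowest control. The difference was -0.26 (standard error 0.08, adjusted p = 0.154 from limma, 0.0683 to 0.541 over the alternatives). Of the 38 motor genes, 14 had a mean log2 signal over 6, so most of the family was measured at or below that level.

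Among 17 other unconventional myosins, limma called none (2 at an unadjusted p under 0.05, none by the methods' t-test after adjustment). Over all genes, 2987 of 19938 had an unadjusted p under 0.05 from limma. The median log2 difference of the 17 was 0.0025. They ran from -0.20 for *Myo18a* (8.56 to 8.36, adjusted p = 0.156, with all miR-709 arrays below the controls) to 0.21 for *Myo5c* (4.61 to 4.82, standard error 0.08, adjusted p = 0.264). *Myo19*, a motor of mitochondria, also had every miR-709 array below the controls, with a difference of -0.16 (adjusted p = 0.34). The choice to name *Myo18a* and *Myo19* came after their values were seen. The cargo motors of endosomes *Myo5b* and *Myo6* had differences of 0.02 and 0.06. Among 14 class II heavy chains none was called either (2 at an unadjusted p under 0.05, none by the methods' t-test), with a median of 0.0463, and the non-muscle heavy chains *Myh10* and *Myh14* differed by -0.0050 and 0.05.

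**Figure D2:**
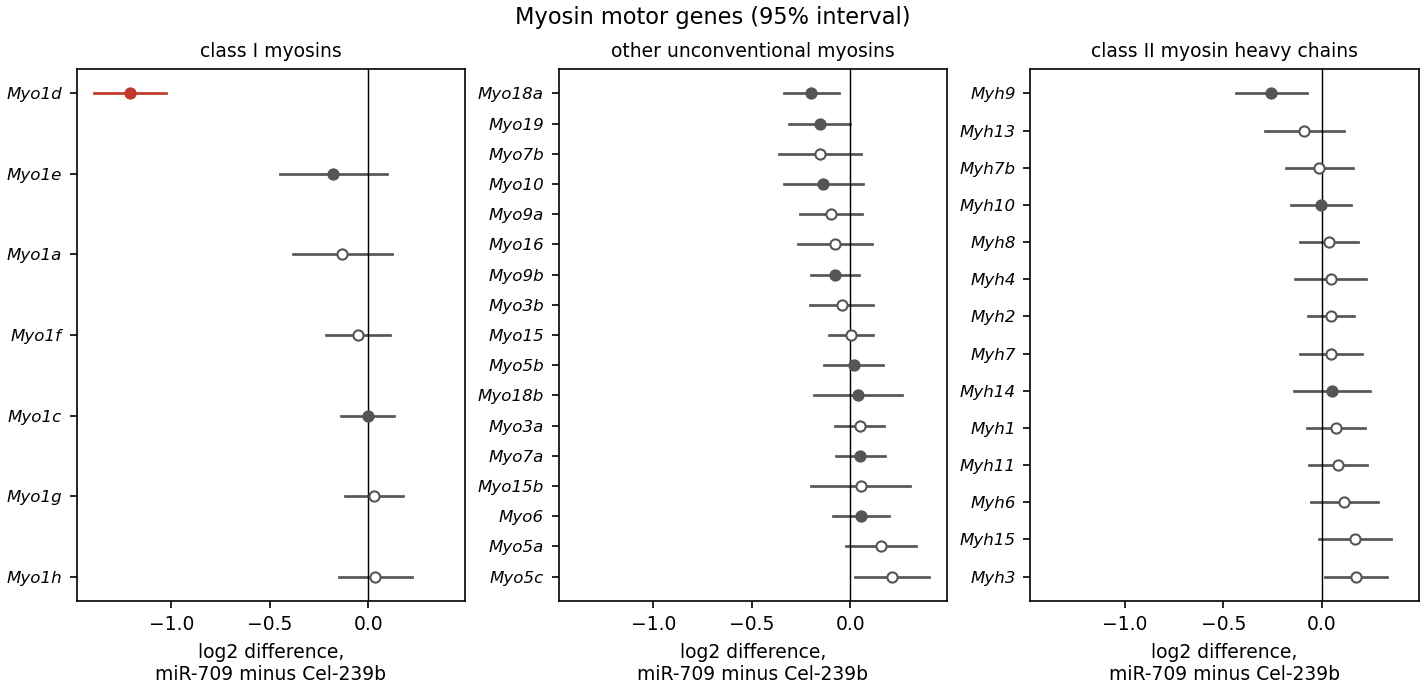
Log2 difference, miR-709 minus Cel-239b (x axis), of 38 myosin motor genes in 3 panels, with 95% intervals from limma; red marks *Myo1d*, the gene selected on this contrast, filled points have a mean log2 signal over 6 and open points a lower one. *Myo1d* lies at -1.21, and the next lowest point is *Myh9* at -0.26.

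Genes that work with class I myosins, or on the same actin, were grouped in 8 further lists. With the unconventional and class II motors they made 131 related genes, of which 6 (4.58%) were called lower, 1 (0.763%) was called higher and 124 were not called, with a median log2 difference of 0.0033. The background, also for the count of each list below, is 1.47% lower and 1.81% higher over all genes. The lists were chosen with earlier results of these data known, so their counts are descriptions. All but 1 of the calls among related genes were lost in at least 1 alternative. Without miR-709 replicates C and D a single related gene was called lower and none higher. Fewer arrays also give less precision, so a call lost in this way need not mean a smaller difference.

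Of 6 measured calmodulins, the light chains of class I myosins, and calmodulin-like genes, limma called none (none at an unadjusted p under 0.05, none by the methods' t-test), with a median log2 difference of -0.0042. The calmodulins proper were *Calm2* and *Calm3*, and the 4 calmodulin-like genes had a mean log2 signal under 5. The mean of *Calm2* was 11.73 against 11.82 with miR-709, a difference of 0.09 (adjusted p = 0.530). The largest change was in *Calm3*, from 9.41 to 9.30, a difference of -0.11 (standard error 0.07, adjusted p = 0.504).

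Tropomyosins coat actin filaments and govern which myosins can bind to them. Of 4 measured genes, 2 were called lower and none higher, with a median of -0.28, beside 1.47% of all genes called lower. *Tpm1* was at 10.73, 10.64 and 10.68 with Cel-239b and at 10.36, 10.35, 10.26 and 10.29 with miR-709. The groups stood clearly apart, by more than their own spread, with a difference of -0.37 (standard error 0.06, adjusted p = 0.00751). *Tpm2* was at 8.97, 8.96 and 8.77 against 8.51, 8.56, 8.19 and 8.08, a difference of -0.57 (standard error 0.12, adjusted p = 0.0377). Replicates C and D were the lowest. The call of *Tpm1* was lost only without miR-709 replicates C and D (adjusted p = 0.0986, and 0.00250 to 0.0986 over the alternatives). That of *Tpm2* was lost without Cel-239b replicate B (0.151), C (0.175) or D (0.0653), without miR-709 replicate C (0.122) or D (0.0872), without both (0.152), with array weights (0.0523) and by the methods' t-test (0.241). The other two, named after their values were seen, were *Tpm4* at -0.19 (adjusted p = 0.115, and 0.0427 to 0.299 over the alternatives) and *Tpm3* at 0.06 (adjusted p = 0.710).

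The exocyst is the complex that tethers vesicles to the plasma membrane. Of 14 exocyst and Ral genes, 1 was called lower and none higher, with a median of -0.0300. *Exoc8*, a subunit of the exocyst, was at 7.74, 7.42 and 7.53 with Cel-239b and at 6.49, 6.68, 6.65 and 6.53 with miR-709. All miR-709 arrays lay well below the controls, and replicates C and D lay between A and B. By limma the difference was -0.98 (standard error 0.09) with an adjusted p of 3.8e-04, and the gene was called in each of the 20 alternatives (8.8e-05 to 0.0309). *Ralgapa2*, a subunit of a complex that turns off Ral, was named after its values were seen, at -0.41 (adjusted p = 0.0881). It was called without Cel-239b replicate D (0.00429) and with filters at a mean signal of 5 (0.0454) or 6 (0.0351).

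Of 19 light chains of class II myosin and their kinases and phosphatases, 1 was called lower, *Myl9*, the regulatory light chain of smooth muscle and non-muscle myosin. The list's median was -0.0317. *Myl9* was at 7.32, 7.16 and 7.11 with Cel-239b and 6.75, 6.69, 6.14 and 6.35 with miR-709, a difference of -0.71 (standard error 0.14, adjusted p = 0.0257). Its miR-709 arrays were all below the controls and spread over more than the control arrays did. The call was lost without Cel-239b replicate B (0.124), C (0.112) or D (0.0686), without miR-709 replicate D (0.0924) or C and D (0.0854), and by the methods' t-test (0.217).

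The Arp2/3 complex and its partners build the branched actin on which many class I myosins work. Of 22 genes, 1 was called lower and 1 higher, with a median of -0.0304. *Wasf2*, an activator of Arp2/3, was lower by -0.37 (8.40 to 8.04, standard error 0.07, adjusted p = 0.0288). *Capza1*, a subunit of the protein that caps filament ends, was higher by 0.33 (9.85 to 10.18, standard error 0.07, adjusted p = 0.0380). The call of *Wasf2* was lost without Cel-239b replicate B (0.0991) or C (0.128), without any single miR-709 replicate (A 0.0770, B 0.0905, C 0.0843, D 0.0779), without C and D (0.200), with a fixed replicate block (0.120) and by the methods' t-test (0.142). That of *Capza1* was lost without Cel-239b replicate C (0.157) or D (0.102), without any single miR-709 replicate (A 0.0724, B 0.0932, C 0.0805, D 0.0963), without C and D (0.212), with the block (0.111) and by the methods' t-test (0.148).

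Of 16 microvillus and brush border genes, 1 was called lower and none higher, with a median of 0.0163. *Msn*, moesin, links membranes to cortical actin and was at 10.83, 10.72 and 10.84 with Cel-239b and 10.51, 10.49, 10.31 and 10.41 with miR-709. The groups did not overlap, and the difference was -0.37 (standard error 0.07, adjusted p = 0.0192). The call was lost without Cel-239b replicate B (0.0810) or D (0.0646), without miR-709 replicate D (0.0667) or C and D (0.144), and by the methods' t-test (0.0943). Its relative *Rdx*, radixin, named after its values were seen, was at 0.22 (adjusted p = 0.112, 0.0492 to 0.327 over the alternatives). *Pls1*, a filament bundler also named after its values were seen, was at 0.48 with overlapping arrays (adjusted p = 0.174).

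Dynamins and synaptojanins, which cut vesicles from the membrane, held no called gene among 5 (none at an unadjusted p under 0.05, none by the methods' t-test), with a median of 0.0392. The largest change was in *Dnm3*, at 0.06. The core genes of planar cell polarity held none among 14 either (2 at an unadjusted p under 0.05, none by the methods' t-test), with a median of 0.0246, and *Dvl3* had the largest change at -0.21 (7.89 to 7.69, adjusted p = 0.189). These lists stand beside *Myo1d* because of its known roles in membrane traffic and asymmetry.

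**Figure D3:**
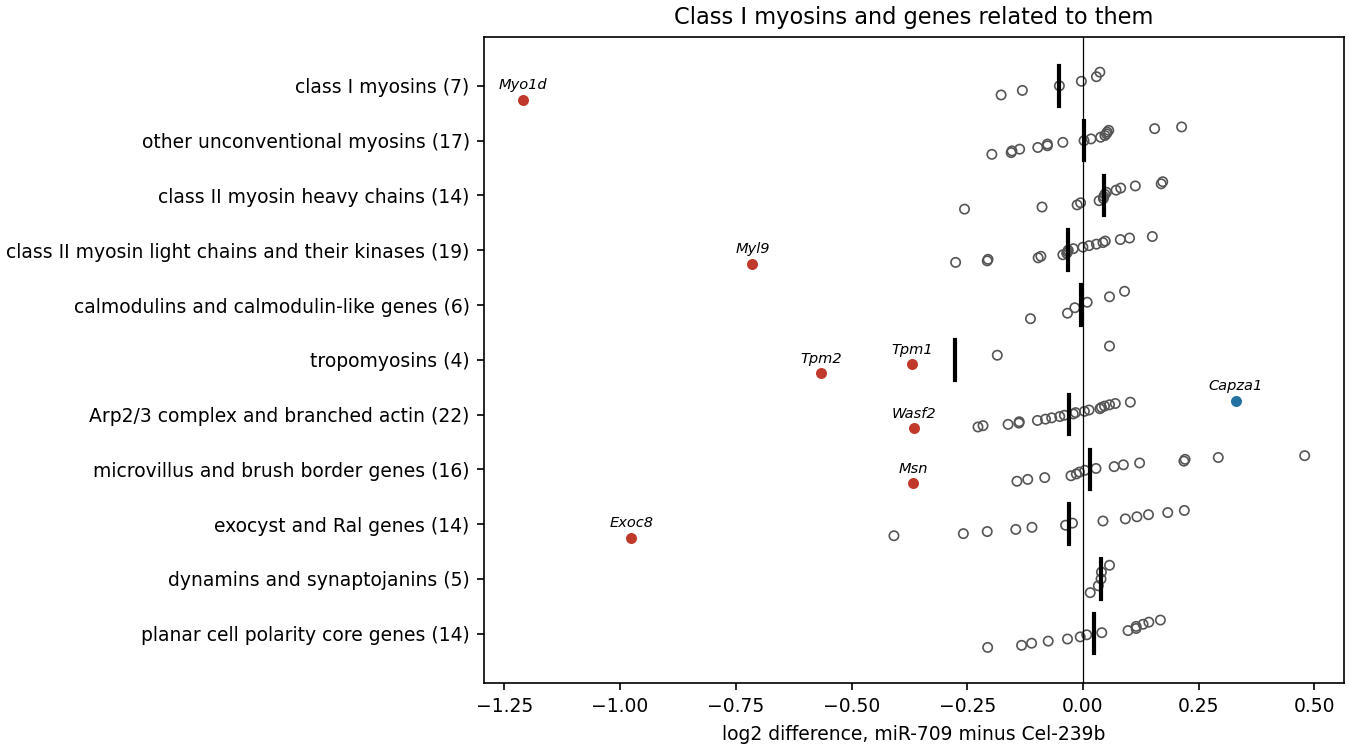
Log2 difference, miR-709 minus Cel-239b (x axis), of each measured gene of the class I myosins and 10 related lists, with the number of genes in brackets and a black bar at each median; red marks genes called lower, blue a gene called higher and open circles genes not called, and height within a list has no meaning. *Myo1d* at -1.21 and *Exoc8* at -0.98 are the lowest points, and the class II myosin light chain *Myl9* follows at -0.71.

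Among markers of the cell types that a hepatocyte preparation can hold, some were called and most were not. Over all genes tested, 1.47% were called lower and 1.81% higher. All 8 hepatocyte markers had a mean log2 signal over 6, and their mean level was 11.49 to 11.57 on the Cel-239b arrays and 11.69 to 11.82 on the miR-709 arrays, with 3 called higher and a median log2 difference of 0.0521. The 5 others, *Alb* among them at -0.0267, ran from -0.18 to 0.07. *Hnf4a*, a hepatocyte transcription factor, was at 0.57 (adjusted p = 0.00104), *Tat* at 0.62 (0.00763, lost without miR-709 replicates C and D at 0.0521, with the fixed replicate block at 0.0675 and by the methods' t-test at 0.105) and *Cps1*, an enzyme of the urea cycle, at 0.68 (0.0136, lost without Cel-239b replicate B at 0.0742 or D at 0.0544 and without miR-709 replicate B at 0.0525, C at 0.0554 or C and D at 0.0789, and by the methods' t-test at 0.157). The mean level of 10 stellate cell and myofibroblast markers was 5.90 to 5.94 against 5.69 to 5.77, with 2 called lower and a median difference of -0.0475. These were *Acta2*, smooth muscle actin, at -1.34 (adjusted p = 4.95e-04) and *Vim*, vimentin, at -0.40 (adjusted p = 0.0123, lost without Cel-239b replicate B at 0.0600 or C at 0.0528 and without miR-709 replicates C and D at 0.122, and by the methods' t-test at 0.0787). The 8 others ran from -0.26 to 0.0950, with *Des*, desmin, the highest and *Col1a1* at -0.08. The mean level of 6 cholangiocyte markers was 7.03 to 7.14 against 6.66 to 6.91, with a median difference of -0.19, and *Krt19* was called lower at -1.23 (adjusted p = 0.0377, up to 0.273 by the methods' t-test, and 0.0629 with array weights). The 5 others ran from -0.30 for *Sox9* to 0.09 for *Epcam*. Leaving out any single array but miR-709 replicate A ended that call, with 0.158, 0.149 and 0.103 without Cel-239b replicates B, C and D and 0.0530, 0.116 and 0.0902 without miR-709 replicates B, C and D. Without both C and D the difference of *Krt19* was -0.73 (0.0531). The part of these markers in the values of *Myo1d*, *Myl9*, *Tpm1* and *Tpm2* was not tested.

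Markers of leukocytes and endothelial cells had mean levels that overlapped between the treatments. The mean level of 12 Kupffer cell and leukocyte markers was 4.76 to 4.81 with Cel-239b and 4.77 to 4.82 with miR-709, and none was called (none at an unadjusted p under 0.05, none by the methods' t-test). Of these, 9 had a mean under 5, among them *Ptprc*, the common leukocyte antigen, and *Clec4f*, a Kupffer cell lectin, while *Cd68* was bright at 10.44 to 10.82 over the 7 arrays and *Cd14* at 7.85 to 8.02. That of 8 sinusoidal endothelial markers was 4.84 to 4.93 against 4.87 to 4.94, with no gene over 6 and none called (1 at an unadjusted p under 0.05, none by the methods' t-test).

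The genes next to *Myo1d* on its chromosome were compared as well. In the gene order of the RefSeq annotation of GRCm38.p6, *Zfp207*, *Psmd11* and *Cdk5r1* are the measured genes on one side and *Tmem98*, *Spaca3* and *Asic2* those on the other, and none overlaps *Myo1d*. Limma called none of these 6 (none at an unadjusted p under 0.05, none by the methods' t-test). Their log2 differences were 0.08, 0.0067, 0.04, 0.22, 0.0042 and 0.04 in that order, with adjusted p values from 0.601 for *Tmem98* to 0.987 for *Spaca3*. *Myo1c* and *Myo1g* lie on the same chromosome as *Myo1d*, so 3 members share it, and *Myo1c* was at -0.0033 and *Myo1g* at 0.03.

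The genes whose profile was most like that of *Myo1d* were picked by the lowest root mean square difference over the 7 arrays, with each gene taken relative to its Cel-239b mean. They were *Pfas*, an enzyme of purine synthesis (0.0921), *Atrn*, attractin (0.112), *Plin3*, a coat protein of lipid droplets and endosomes (0.122), *Mpzl2*, a cell adhesion protein (0.135), and *Tstd2* (0.137). Their log2 differences of -1.18, -1.30, -1.32, -1.27 and -1.09 frame the -1.21 of *Myo1d*, as the choice itself requires, and no test applies. No myosin, calmodulin, tropomyosin or exocyst gene was among these 5. Besides *Myo1d*, the lowest difference in those families was that of *Exoc8* at -0.98, so the choice largely fixed this too.

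**Figure D4:**
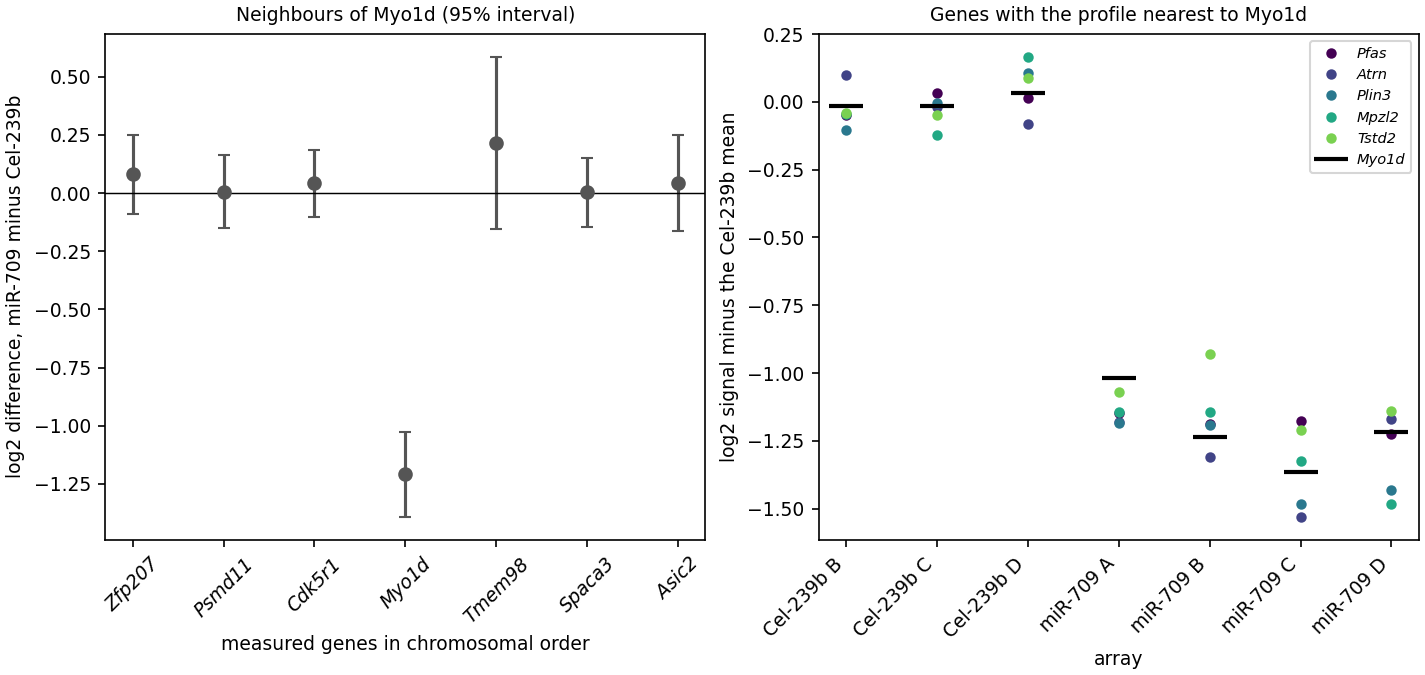
Left, log2 difference with 95% interval (y axis) of *Myo1d* and the 3 measured genes on either side of it in chromosomal order; right, log2 signal minus the Cel-239b mean (y axis) on each of the 7 arrays for *Myo1d* (black bars) and the 5 genes of the nearest profile (coloured points). The 6 neighbours lie between 0.0042 and 0.22 while *Myo1d* lies at -1.21, and the 5 genes on the right were chosen for their likeness to it.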

How the data were processed

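Total RNA of primary mouse hepatocytes was hybridised to 7 Affymetrix Mouse Gene 1.0 ST arrays. The authors deposited log2 signals per probe set, made in Partek with RMA, which corrects background, quantile-normalizes the arrays and combines probes; the versions are not given in the sources used here. Raw scans were not analysed here, so these steps could not be varied. Of 28853 probe sets, 21789 had 1 symbol, 1621 several and 5443 none, and 21698 matched the gene table by gene number. Where several probe sets shared a gene (999 genes), the brightest stood for it, and 19938 genes were tested. No pair of arrays held identical values.

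Groups were compared with limma 3.58.1 in R 4.3.3 (2 groups, no covariate, 2-sided, Benjamini-Hochberg over all genes tested, adjusted p under 0.05), checked on simulated data. The 1-way ANOVA of the methods is called the methods' t-test. Members and lists were chosen with earlier results of these data known. Named were all members, up to 4 called genes per list or else the largest change, 3 measured neighbours on either side, 5 genes of the nearest profile and called markers. The interferon list and the comparison without miR-709 replicates C and D were chosen after seeing the data. Alternatives were a variance trend, the methods' t-test, other uses of probe sets, signal filters at 5 and 6, further scalings, array weights, replicate blocks and each array left out. No sequence or coordinate is printed, since the tables used here hold none for *Myo1d* or miR-709 on a build named for the array.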

Additional observations from a re-analysis of the deposited data

Results flagged for a closer look

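Among the class I myosins, 2 genes had 1 miR-709 array far from the other 3. *Myo1c* was at 10.00 on replicate C and at 10.14 to 10.15 on the others, a gap of 0.933 of the group's range. *Myo1h* was at 3.95 on replicate B and at 3.79 on each of the others, so the gap made up the whole range (1.000). This gene had a mean log2 signal under 5, and equal values on the other 3 arrays give that ratio whatever the gap. Where no values are tied, chance gives such an array in about 1 in 20 groups, and 43 groups of 4 arrays of the named genes were examined.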

How the results depend on the processing

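The difference of *Myo1d* was between -1.27 and -1.04 in the 20 alternatives, with -1.04 for the mean of its probe sets and -1.27 to -1.16 with single arrays left out, and class I myosins called lower were 1, the gene selected for its decrease, and higher 0 in each, counts that the selection fixes in part and that are no sign of stability. Arrays with the same replicate letter shared little deviation over all genes (correlations 0.0189 for B, 0.0167 for C and 0.0462 for D). The sources do not say whether the letters mark pairs. With the letter as a fixed block, *Myo1d* was at -1.27 and related genes called higher fell from 1 to 0, and with a random replicate block it was at -1.21. Related genes called lower were 6, but 3 by the methods' t-test, 1 without miR-709 replicates C and D and 2 to 5 with single arrays left out. Those called higher were 1, but 0 by that t-test and without C and D, 2 (with *Rdx*) with a filter at 6 and 0 to 1 with single arrays left out. Of 823 results of named genes over the alternatives, 734 kept sign and side of the threshold, 60 lost a call, 6 gained one and 23, none of them called, changed sign. The last were *Psmd11* at -0.0056 (quantile normalization), -0.0174 (cyclic loess) and -0.0883 (without C and D), *Spaca3* at -0.0025 (median centring) and -0.0133 (without C and D), *Myo1c* at 0.0011 (array weights) and 0.0367 (without C and D), *Myo1e* at 0.0283 (without C and D), *Asic2* at -0.0067 (fixed block), and, with single arrays left out, *Myo1a* (-0.20 to 0.0125), *Myo1c* (-0.0167 to 0.0333), *Myo1g* (-0.0225 to 0.0775), *Myo1h* (-0.05 to 0.11), *Zfp207* (-0.0075 to 0.14), *Psmd11* (-0.0267 to 0.04), *Spaca3* (-0.0575 to 0.0475) and *Asic2* (-0.0525 to 0.0975). The causes were not tested. The members under a mean signal of 5 have no value under the filters.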
